A study of Mus musculus with 6 samples.

Results

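The cluster of miR-322 and miR-503 is a group of microRNA genes that lie close together on the mouse X chromosome. Its members were taken by name: every name on the array built on miR-322, miR-503, miR-542, miR-351, miR-450a or miR-450b, from either arm of the hairpin and whether or not a signal was seen. This gave 11 of the 690 miRNA names on the array, with 36 of its 1928 probes. The series profiled miRNAs on 1-colour arrays, 1 array for each of 6 preparations of cells sorted from transgenic SMA-GFP mice, in which the promoter of smooth muscle actin drives green fluorescent protein. All sorted cells were negative for CD45, which marks blood cells, and for CD31, which marks endothelium. The skin group held 3 preparations (numbered 1, 2 and 5 in the labels) of cells with low GFP from dermis, labelled fibroblast-like cells. The wound group held 3 preparations (numbered 3, 4 and 6) of cells with high GFP from wounds 7 days after injury, labelled myofibroblast. Tissue, injury and GFP level changed together and cannot be told apart. Groups follow the array titles; the authors' deposited table numbers the same arrays differently, which of the numberings is right cannot be settled from the sources used here, and every direction below rests on the titles. The age and strain of the mice, and whether each preparation came from separate mice or from a pool, are not given in the sources used here, and p-values therefore speak only of the spread over these preparations, which may be technical.

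A miRNA precursor is a hairpin that is cut into a 5p and a 3p arm, and the arm loaded into an Argonaute protein finds its target mRNAs mainly through the seed, bases 2 to 8. miR-322 (the mouse counterpart of human miR-424) and miR-503 carry seeds of the miR-15/16 type and are known to lower cyclins and other drivers of the cell cycle, for example when muscle precursors leave the cycle. miRNAs of 1 cluster can come from a common transcript, while the amount of each mature arm also depends on its processing and stability.

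All 11 names were matched to mature sequences in RefSeq (GRCm38.p6). The sequences are shown because the seeds, in capitals, separate members that read like the miR-15/16 or miR-125 families from the others, and because they identify which arm each value below belongs to. Each is written 5′ to 3′.
miR-322-5p: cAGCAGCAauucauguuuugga
miR-503-5p: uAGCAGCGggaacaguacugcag
miR-15a-5p: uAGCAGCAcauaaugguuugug
miR-15b-5p: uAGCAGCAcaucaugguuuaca
miR-16-5p: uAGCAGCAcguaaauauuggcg
miR-195a-5p: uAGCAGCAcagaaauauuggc
miR-351-5p: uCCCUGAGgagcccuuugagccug
miR-125a-5p: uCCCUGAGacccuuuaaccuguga
miR-125b-5p: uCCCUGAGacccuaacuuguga
miR-542-3p: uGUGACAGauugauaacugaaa
miR-542-5p: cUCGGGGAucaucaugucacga
miR-450a-5p: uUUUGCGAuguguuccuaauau
miR-450b-5p: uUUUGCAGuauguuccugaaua
miR-450a-2-3p: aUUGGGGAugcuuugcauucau
miR-450b-3p: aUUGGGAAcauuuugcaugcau
miR-322-3p: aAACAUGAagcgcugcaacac
miR-503-3p: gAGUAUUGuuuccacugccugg

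The seed of miR-322-5p is AGCAGCA, the seed of miR-15a-5p, miR-15b-5p, miR-16-5p and miR-195a-5p. That of miR-503-5p, AGCAGCG, was not found in any other matched name. miR-351-5p shares CCCUGAG with miR-125a-5p and miR-125b-5p. No name outside the cluster that was matched to a sequence had the seed of miR-542-3p, miR-450a-5p or the remaining members.

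The cluster has 7 hairpin genes on the minus strand of chromosome X, in the order Mir322, Mir503, Mir351, Mir542, Mir450-2, Mir450-1 and Mir450b in the direction of transcription, within 6353 bases (GRCm38.p6). The gaps from 1 hairpin to the next were 200, 630, 3767, 1035, 54 and 75 bases. The first 3 hairpins lie inside the long noncoding RNA gene C430049B03Rik, which is 4079 bases long, and the other 4 beyond it. Mature miR-322-5p is at chrX:53054306-53054327, miR-503-5p at chrX:53054027-53054049, miR-351-5p at chrX:53053315-53053338 and miR-542-3p at chrX:53049415-53049436. miR-450a-5p is made by both Mir450-1 (chrX:53048206-53048227) and Mir450-2 (chrX:53048339-53048360), so its signal cannot be assigned to either gene.

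On these arrays the spot signal after background subtraction is an intensity that can fall below 0. Spots of the negative control probes had means between -4.08 and -1.39 intensity units, with SDs between 5.26 and 7.55, and 0 spots were saturated. For the levels below, each array was divided by the 75th percentile of its bright probes (1244 to 1772 units on the skin arrays and 786 to 1136 on the wound arrays), values under a floor of -5.30 (log2) were raised to it, and log2 was taken. A name was tested if at least 1 of its probes stood well above background throughout a group, on all 3 of its arrays, which held for 222 names. In limma with Benjamini-Hochberg adjustment over the 222, at an adjusted p under 0.05, 44.1% of tested names were higher and 20.7% lower in the wound cells, and the median difference was 0.38 (log2). Of the keratinocyte names 2 of 12 were tested, miR-203-3p and miR-205-5p, and both were lower in wound, by -1.45 and -0.92. Both lay at the floor on all 3 wound arrays and entered the test through skin alone. They could hardly come out higher, and their differences are distances from the floor. The unscaled signal of the whole list summed to 159.9 to 238.9 in skin and -19.0 to -14.7 in wound. Of the 9 skeletal and cardiac muscle names, 0 were well above background on any array, and of the 5 blood names miR-451a was so on 2 skin arrays and the others on none. Their sums were 11.2 to 25.5 (muscle) and 14.8 to 46.0 (blood) in skin and 18.4 to 20.9 and 23.5 to 30.0 in wound. The endothelial miR-126-3p was well above background on all 3 skin and all 3 wound arrays, and miR-126-5p on none. The difference of miR-126-3p, 0.50, did not pass (adjusted p = 0.109 in limma) and was -0.22 to 0.50 over the 5 scalings. Of the 3 smooth muscle names, miR-143-3p (1.24) and miR-145a-5p (0.65, called under 2 of 5 scalings) were tested and higher in wound. The part of other cells in the cluster's values was not tested, and in bulk RNA fewer cells of a type and less RNA per cell cannot be told apart.

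In the wound cells the tested members of the cluster were higher. These were 4 of the 11 names, miR-322-5p, miR-503-5p, miR-450a-5p and miR-542-3p, and all 4 passed with a higher wound level and 0 with a lower one, where 44.1% of all tested names were called higher. Only miR-322-5p was well above background in skin. The other 3 entered the test through the wound arrays alone and could hardly come out lower, so the count of 4 is a description and not support for a shared direction. The remaining 7 names met the signal criterion in neither group.

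mmu-miR-322-5p, the first arm of the cluster and the one with the full miR-15/16 seed, was measured on all 6 arrays. Its unscaled signal was 118 in skin 1, 50.2 in skin 2 and 115 in skin 5, against 470 in wound 3, 775 in wound 4 and 715 in wound 6. The lowest wound array thus lay well above the highest skin array before any scaling, and skin 2 was the lowest of the 6. On the scaled log2 scale the levels were -3.65, -4.63 and -3.95 in skin 1, 2 and 5 and -0.74, -0.50 and -0.67 in wound 3, 4 and 6. The skin preparations differed more among themselves (-4.08 ± 0.50, mean ± SD, n = 3) than the wound preparations did (-0.64 ± 0.12, n = 3), and the groups did not overlap. The difference was 3.44 (SE 0.27, 95% interval 2.74 to 4.14), a 10.8-fold higher level (adjusted p = 2.3e-04 in limma). It lay 3.06 above the median difference of all tested names.

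mmu-miR-503-5p, the neighbour of miR-322 in the genome, was at background in skin. Its unscaled signal was -3.66, -8.73 and -4.40 in skin 1, 2 and 5, and 195.5, 268 and 260 in wound 3, 4 and 6. The skin values were below 0, and the wound values were far from them. The scaled log2 levels were the floor, -5.30, on the 3 skin arrays and -2.01, -2.03 and -2.13 in wound 3, 4 and 6 (-2.06 ± 0.06, n = 3). Against the lowest signal that was well above background on each skin array, the wound level was at least 10.72-fold higher under the reported scaling. That bound was not computed under the other scalings, where the difference was smaller, at 2.78 to 2.96. The difference from the floor was 3.25 (SE 0.04, adjusted p = 5.3e-07 in limma). With all skin arrays at the floor no skin spread was measured, so this SE and p, and those of the next 2 members, are too small.

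mmu-miR-450a-5p, from the distal end of the cluster, gave an unscaled signal of 2.84, 0.94 and 5.99 in skin 1, 2 and 5. In wound 3, 4 and 6 it gave 46.6, 67.0 and 65.6. The groups were again apart, with each skin array below its brightest negative control spot. The wound levels of -4.08, -4.03 and -4.12 (log2, wound 3, 4 and 6, mean -4.07 ± 0.04, n = 3) were at least 2.65-fold above skin under the reported scaling. The difference from the floor was 1.23 (SE 0.04, adjusted p = 5.0e-06 in limma). The bound was not computed under the other scalings, where the difference was smaller, at 0.76 to 0.94.

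mmu-miR-542-3p, known to target the cell survival factor survivin, had the smallest tested difference of the cluster. Its unscaled signal was 4.29, -1.62 and 1.17 in skin 1, 2 and 5 and 30.3, 38.6 and 40.3 in wound 3, 4 and 6. No skin array reached any wound array. The scaled wound levels of -4.70, -4.83 and -4.82 (log2, wound 3, 4 and 6, mean -4.78 ± 0.07, n = 3) lay just over the floor. Under the reported scaling they were at least 1.62-fold above skin, a bound not computed under the other scalings. Before scaling the floor was 19.9 to 44.9 units over the arrays, a range that spans the wound signals. Each wound signal still lay above the floor of its own array. The difference of 0.52 (SE 0.05, adjusted p = 3.6e-04 in limma) was called under 1 of 5 ways of scaling the arrays and was 0.12 to 0.23 under the other 4 (adjusted p up to 0.361). Its size is a distance from the floor and moved with it: with the total signal per miRNA of the scanner software, where all skin arrays lay at another floor, it was 2.93.

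**Figure D1:**
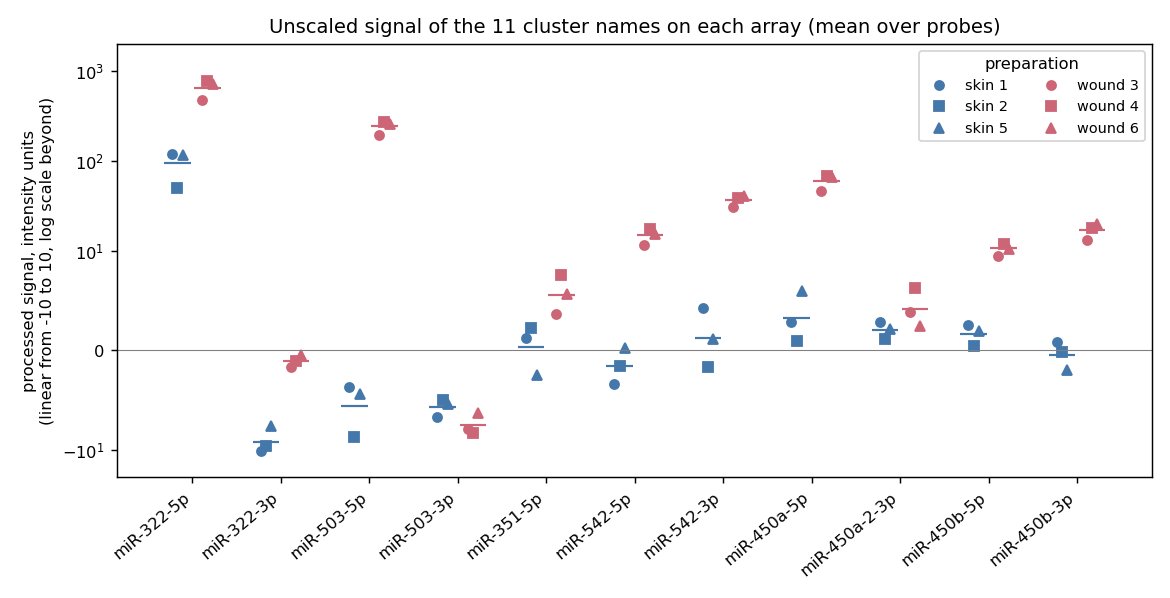
Unscaled processed signal (intensity units, linear between -10 and 10 and logarithmic beyond) of the 11 names of the cluster on each of 3 skin arrays (blue) and 3 wound arrays (red), in the order of their genes. Horizontal bars are group means; miR-322-5p is the only name with skin signal far from 0, and miR-503-3p the only one whose wound mean is below its skin mean.

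The differences were also taken within each row of the slide, where only miR-322-5p, with measured skin levels, could have changed direction. Row 1 held skin 1, skin 2 and wound 3, and row 2 held wound 4, skin 5 and wound 6. The difference of miR-322-5p was 3.44 over all arrays, 3.40 within row 1 and 3.36 within row 2, and that of miR-503-5p 3.25, 3.29 and 3.22. For miR-450a-5p it was 1.23 in all 3, and for miR-542-3p 0.52, 0.60 and 0.48. With the row as a block all 4 passed (largest adjusted p = 0.00149 in limma, for miR-322-5p).

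Other processing changed the sizes. Under the other 4 scalings, which moved the median of all tested names by -0.57 to -0.38, miR-322-5p differed by 2.75 to 3.03, miR-503-5p by 2.78 to 2.96 and miR-450a-5p by 0.76 to 0.94, and these 3 passed under each. With normexp background correction, which adds an offset of 50 units and under which the median of all tested names was 1.03, miR-322-5p still passed (2.13, adjusted p = 0.021 in limma). miR-503-5p (1.61, adjusted p = 0.052), miR-450a-5p (1.09, 0.17) and miR-542-3p (1.07, 0.17) did not. With a floor 4 times as high miR-322-5p differed by 2.67 and miR-503-5p by 1.25, while miR-450a-5p and miR-542-3p lay at the floor on every array. Read by the column numbers of the authors' deposited table, 0 of 210 names passed in limma (3 had an unadjusted p under 0.05) and miR-322-5p differed by -0.56 (adjusted p = 0.96). That reading changes the grouping of the arrays, not only the processing. Its skin group holds the signals of the arrays titled 3, 4 and 2, and its wound group those of arrays 6, 1 and 5. Each group thus mixes arrays titled skin and wound.

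**Figure D2:**
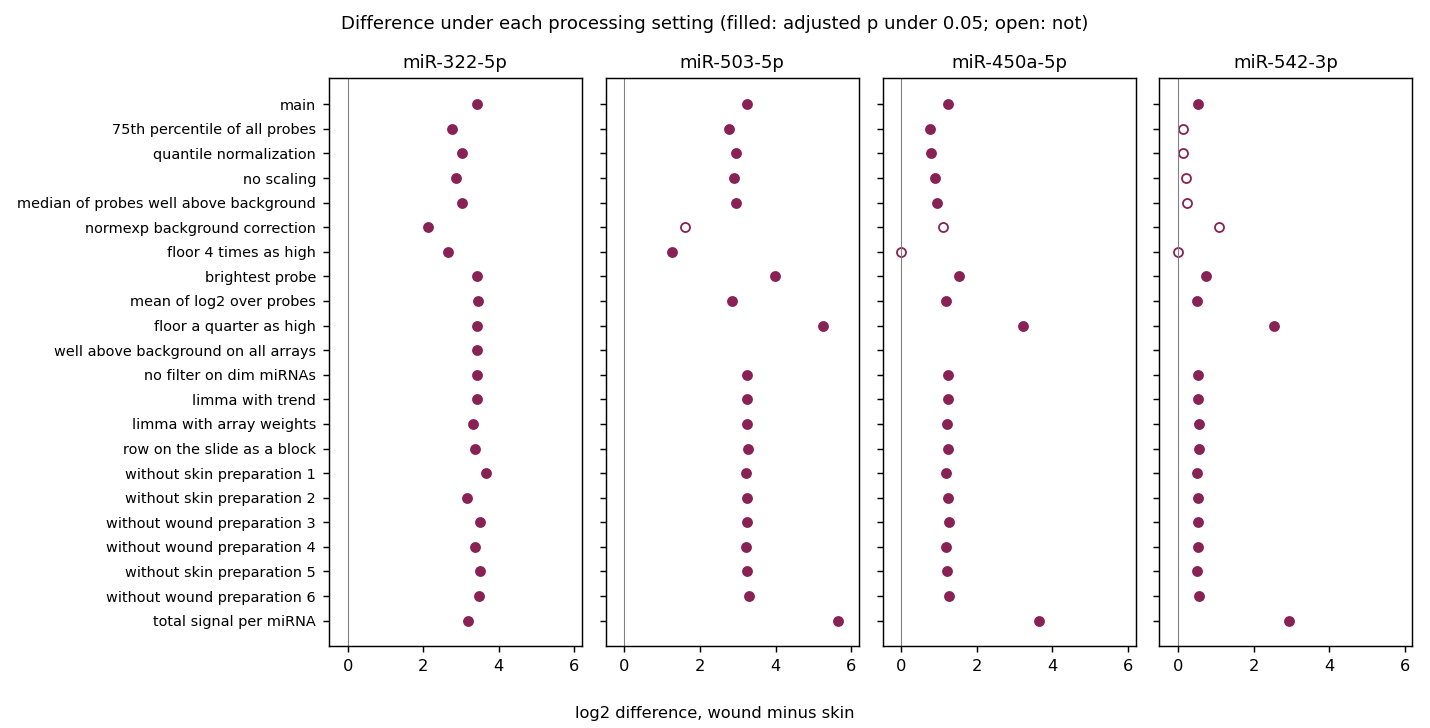
Difference between wound and skin (log2, x axis) of the 4 tested members under the reported processing (main) and 21 other settings (rows); filled points had an adjusted p under 0.05 in limma and open points did not. miR-322-5p is filled in every row shown, and miR-542-3p is open under the 4 other scalings, normexp and the higher floor; a missing point means that the name was not tested under that setting.

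The probes of each tested member showed how far its value rests on single probes. Of 402 tested probes over the whole array 45.8% were called higher and 21.6% lower in wound. The cluster had 7 tested probes, and all 7 were higher, but 5 of them, those of miR-503-5p, miR-450a-5p and miR-542-3p, had no skin spot well above background and could hardly come out lower. The 2 probes of miR-322-5p gave nearly the same difference, 3.47 (SE 0.24) and 3.42 (SE 0.27). Those of miR-503-5p were at least 17.7-fold and at least 3.69-fold higher in wound. For miR-450a-5p the bounds were at least 3.22-fold and at least 2.07-fold, and for the only tested probe of miR-542-3p at least 1.88-fold. These lower bounds hold under the reported scaling and do not show whether the folds of a name's probes differ. The unscaled wound means of the brighter and dimmer probe were 398 and 84.0 for miR-503-5p, whose averaged signal thus rests mostly on 1 probe. They were 761 and 546 for miR-322-5p, 72.8 and 46.7 for miR-450a-5p and 42.2 and 30.6 for miR-542-3p.

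Across all 36 probes of the cluster, tested or not, 24 had their 3 unscaled wound signals above their 3 skin signals. Of all 1928 probes on the array 15% did, and 15.8% had all skin signals above all wound signals. The 24 were all probes of miR-322-5p, miR-503-5p, miR-450a-5p and miR-542-3p (2 of 2 each) and of miR-450b-3p and miR-450b-5p (4 of 4 each), 3 of 4 for miR-542-5p and for miR-322-3p, and 1 of 4 for miR-351-5p and for miR-450a-2-3p. miR-503-3p had 0 of 4. Probes of 1 name read the same molecule and are not independent, and unscaled signals also carry the overall brightness of each array. These counts, over the cluster and the array, set no signal threshold and include orderings within background. For example, 1 counted probe of miR-322-3p read -10.4 to -8.29 in skin and -8.23 to -6.78 in wound.

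Of the 7 dim names, miR-542-5p was well above background on 2 wound arrays, miR-450b-3p and miR-351-5p on 1 each and the other 4 on none. The unscaled signal of miR-542-5p was -3.35, -1.59 and 0.21 in skin 1, 2 and 5 and 11.7, 17.5 and 15.4 in wound 3, 4 and 6. That of miR-450b-3p was 0.79, -0.18 and -1.98 in skin and 13.1, 18.1 and 20.0 in wound. Neither had overlapping groups, and no skin value exceeded the brightest negative control spot of its array. The partner arm of the second, miR-450b-5p, gave 2.54, 0.44 and 1.99 in skin and 9.42, 11.8 and 10.4 in wound.

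miR-351-5p, whose seed is that of miR-125, gave 1.197, 2.27 and -2.44 in skin 1, 2 and 5 and 3.62, 7.51 and 5.62 in wound 3, 4 and 6. This signal came from 1 of its 4 probes, which read 1.0, 3.5 and -1.6 in skin and 24.1, 34.4 and 28.6 in wound; the other 3 stayed near 0 in both groups. miR-322-3p, the partner of miR-322-5p, was negative on every array, at -10.3, -9.55 and -7.63 in skin and -1.68, -1.05 and -0.48 in wound. Again 1 probe differed from the rest, at -9.6, -7.3 and -6.5 in skin and 10.98, 15.7 and 21.1 in wound. miR-450a-2-3p (2.89, 1.17 and 2.18 in skin; 3.84, 6.25 and 2.46 in wound) and miR-503-3p (-6.68, -4.93 and -5.38; -7.85, -8.27 and -6.27) had overlapping groups and stayed below the brightest negative control spot on every array.

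**Figure D3:**
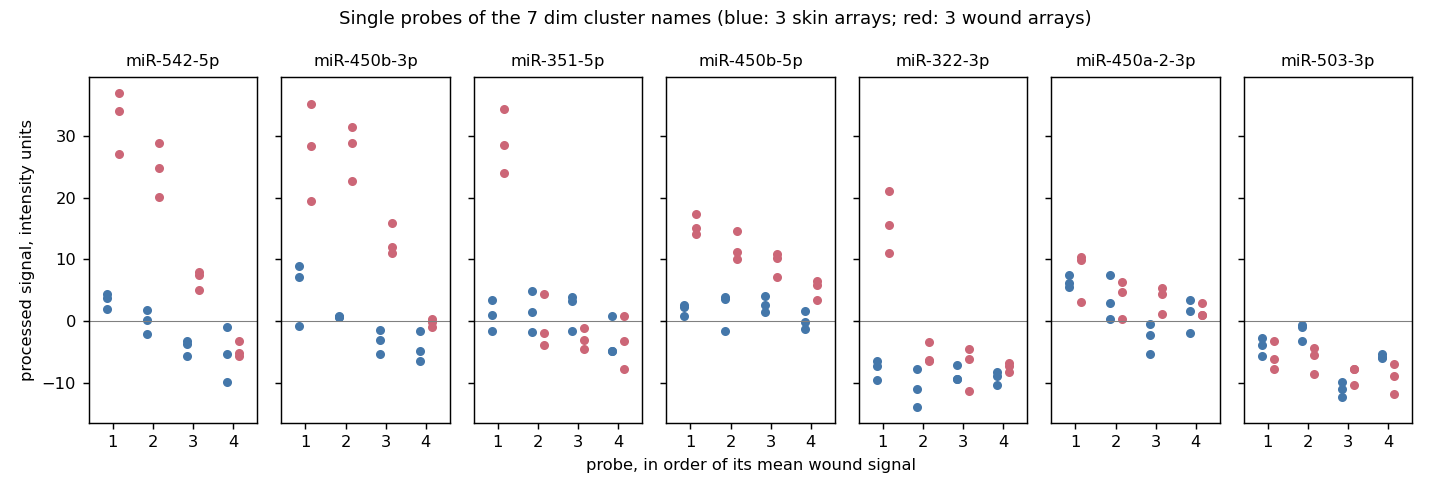
Unscaled processed signal (intensity units) of each of the 4 probes of the 7 names that were not tested, ordered within a name by mean wound signal, on 3 skin arrays (blue) and 3 wound arrays (red). Only 1 probe each of miR-351-5p and miR-322-3p stands well above 0 in wound. The wound points lie above the skin points for 3 of the 4 probes of miR-542-5p and of miR-322-3p. They do so for all 4 probes of miR-450b-3p and of miR-450b-5p.

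The scanner software's own detection call, made for each name on each array, set skin and wound apart for 6 of the 11 names. miR-322-5p was detected on all 6 arrays. miR-503-5p, miR-542-3p, miR-542-5p, miR-450a-5p, miR-351-5p and miR-450b-3p were detected on all 3 wound and 0 skin arrays, a pattern that 4.49% of all 690 names had, with 2.17% showing the reverse. miR-322-3p was detected on 1 wound array, and miR-503-3p, miR-450a-2-3p and miR-450b-5p on none. With the total signal of that software in place of the processed signal, 260 names were tested, of which 34.6% were higher and 25% lower in wound, and 7 members of the cluster were higher. The 3 added ones were miR-542-5p (1.59), miR-450b-3p (1.23) and miR-351-5p (0.60). They were detected on no skin array and entered through wound alone, so these values are distances from a floor, no skin spread was measured, and the calls add no support.

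The relatives of miR-322-5p by seed, encoded on other chromosomes, did not move together. Those matched to a sequence share only bases 2 to 7 of the seed with miR-503-5p. Of 5 tested 5p arms of the miR-15/16 family (with miR-195 and miR-497) 2 were higher, 2 lower and 1 did not pass, with a median difference of -0.18 against 0.38 for all tested names. miR-15b-5p rose from -1.42, -1.24 and -1.15 (log2 level, skin 1, 2 and 5) to 0.18, 0.40 and 0.20 (wound 3, 4 and 6), a difference of 1.53 (SE 0.10, adjusted p = 1.1e-04 in limma). miR-195a-5p fell from 1.92, 1.67 and 1.94 to 0.37, 0.46 and 0.24, a difference of -1.48 (SE 0.10, adjusted p = 1.4e-04). In both the groups were apart and the 3 preparations of a group lay close together, in opposite order. miR-497-5p, made from the same transcript as miR-195a and shown without a sequence, fell from 1.58, 1.29 and 1.59 to 0.49, 0.54 and 0.23 (-1.06, SE 0.13, adjusted p = 0.0012).

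miR-16-5p and miR-15a-5p, the arms that gave the family its name, had its smallest differences. miR-16-5p was 0.96, 0.79 and 0.82 in skin 1, 2 and 5 and 1.23, 1.31 and 1.15 in wound 3, 4 and 6 (difference 0.38, SE 0.07, adjusted p = 0.0061 in limma), but its sign turned with the scaling (-0.31 to 0.63 under the other 4). miR-15a-5p was 0.46, 0.09 and 0.45 in skin and 0.29, 0.22 and -0.04 in wound (-0.18, SE 0.15, adjusted p = 0.343), with overlapping groups; it was lower under 2 of the other 4 scalings. miR-15b-5p, miR-195a-5p and miR-497-5p kept their calls under all 5. Under the 5 scalings 1 to 2 of the family were higher and 2 to 3 lower. The family's arms were well above background in both groups, which in the cluster held for miR-322-5p alone, so the counts of the 2 sets are not comparable. The difference between miR-322-5p and any relative was not tested.

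Both miRNAs with the seed of miR-351-5p were called, in opposite directions. miR-125a-5p rose from -2.82, -2.52 and -2.71 (log2 level, skin 1, 2 and 5) to -1.35, -1.06 and -1.53 (wound 3, 4 and 6), a difference of 1.37 (SE 0.15, adjusted p = 8.4e-04 in limma). miR-125b-5p fell from 2.89, 3.104 and 2.84 to 1.55, 1.65 and 1.43, a difference of -1.40 (SE 0.10, adjusted p = 1.4e-04). The groups were apart for both, and both calls held under all 5 scalings.

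**Figure D4:**
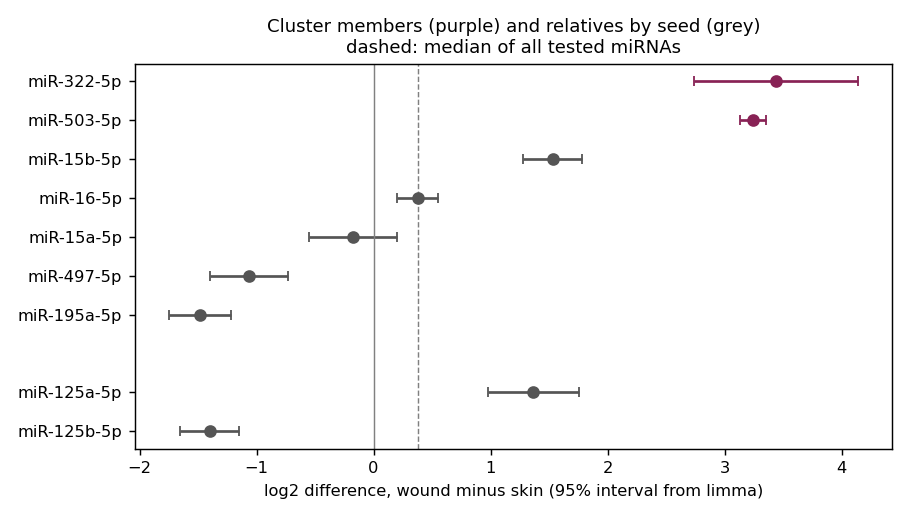
Difference between wound and skin (log2, x axis) with its 95% interval from limma, for the 2 cluster members with a seed of the miR-15/16 type (purple), the tested relatives of that family, and the 2 miRNAs that share the seed of miR-351-5p (grey). miR-322-5p (3.44) and miR-503-5p (3.25, too narrow an interval because skin was at the floor) lie to the right of miR-15b-5p (1.53), and miR-195a-5p (-1.48) lies farthest to the left; the dashed line is the median of all tested names, 0.38.

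Other miRNAs that the RefSeq table matched to the X chromosome were read beside the cluster. The table had no match for miR-532-5p, which is counted only with the Clcn5 cluster below. Of 70 such names 13 were tested, 7 of them higher and 2 lower, with a median of 0.43, close to that of all tested names. Over the 5 scalings 0 to 7 were higher and 2 to 3 lower. In this list the names of smallest p were miR-676-3p (-0.53), miR-2137 (1.17, called under 2 of the 5 scalings) and miR-221-3p (0.63, called under 1 and negative, at -0.13, under another). The wound levels of miR-676-3p were all at the floor, so it entered through skin alone and could hardly come out higher. A cluster in an intron of the X-linked chloride channel gene Clcn5, whose other tested names are also counted in that list, had 4 of 5 tested names higher and 0 lower, with a median of 0.71, but 0 to 4 higher over the scalings. Its names of smallest p were miR-532-5p (0.71), miR-362-3p (0.93) and miR-500-3p (0.43, down to -0.26 with scaling), each called under 1 of the 5.

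The miRNAs whose levels followed miR-322-5p most closely were sought among 154 other tested names, those well above background on all 6 arrays whose levels were not all at the floor. The highest Pearson correlations over the 6 log2 levels were those of miR-379-5p (0.998), miR-411-5p (0.997), miR-154-5p (0.994), miR-300-3p (0.994), miR-19a-3p (0.992) and miR-377-3p (0.992). Of the 6, miR-19a-3p is encoded on chromosome 14 and the other 5 on chromosome 12. All 6 were higher in wound, with differences of 3.42, 3.02, 2.39, 3.84, 1.71 and 3.55 in that order, and miR-19a-3p lost its call under 1 scaling. Like miR-322-5p, each had its lowest level in skin 2, but for miR-19a-3p and miR-377-3p that level was the floor. With 3 arrays a group these correlations mostly reflect the difference between groups, and the arrays share scaling and floor.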

How the data were processed

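Per the file headers, the authors extracted spot values using Feature Extraction 10.7.3.1 (Agilent) and a grid annotated on mm9. The deposited scanner files hold intensity values that were not normalized between arrays, spot flags and the scanner software's total signals. A second deposited table gives log2 values of unstated processing. Its columns were matched to arrays by their numbers only as an alternative, because columns 1 to 6 equal, apart from a constant, the log2 total signals of arrays 3, 4, 6, 1, 2 and 5.

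For each probe the processed signal was averaged over spots without outlier flags and scaled to the 75th percentile, on that array, of the probes that stood well above background on all 6 arrays (over 50% of their spots flagged as such). Probes of a name were averaged, raised to a floor of 0.0253 (19.9 to 44.9 intensity units: the lowest scaled signal well above background, taken as the median of the 6 arrays) and taken to log2. The comparison used limma 3.58.1 in R 4.3.3 (two-sided, lmFit then eBayes) after the code was tested on simulated data. A fold is a lower bound (at least N-fold) where 1 group had no array well above background: each dim array then counts at its lowest well-above signal, or at its own signal if that is higher. Because these signals can lie under the common floor, a bound can exceed the difference from the floor. Bounds were computed under the reported scaling only. Sequences and gene order came from RefSeq tables (GRCm38.p6), which matched 536 of 690 names. Named were all cluster names, the tested 5p arms of the miR-15/16 family, the names of smallest p in the other lists (3 each), the 6 tested miRNAs most correlated with miR-322-5p, and the seed relatives of miR-351-5p. The members, lists and tests were chosen with earlier results of these data known. Alternatives covered scaling, background correction, signal column, probe summary, floor, filter, variance model, slide row, left-out arrays and the authors' table.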

Additional observations from a re-analysis of the deposited data

How the results depend on the processing

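Of the 4 tested members, miR-322-5p kept its call under all 15 alternatives, apart from arrays left out and the column numbers (2.13 to 3.45), miR-503-5p under 13 of 14 (1.25 to 5.66), miR-450a-5p under 12 of 14 (0 to 3.64) and miR-542-3p under 8 of 14 (0 to 2.93). All but miR-322-5p lay at the floor in skin, so their direction could not turn and their sizes follow the floor. With any 1 array left out all 4 passed, at 3.17 to 3.67, 3.21 to 3.29, 1.19 to 1.26 and 0.48 to 0.55. Members called higher (4) were 1 with normexp, 2 with the floor raised 4 times, 1 when only names well above background on all arrays were tested (fewer names enter), and 7 with total signals. Their tested probes called higher (7) numbered 3 with normexp and 3 with the higher floor. Over all tested names, 98 higher calls became 52 with the 75th percentile of all probes, 54 with no scaling, 16 with normexp, 44 with the higher floor and 59 with the stricter filter. The 46 lower calls became 76 with the percentile of all probes and 7 with normexp. The share of higher among called names was 68.1%, and 40.6%, 51.1%, 50.0% and 50.0% with the percentile of all probes, quantile normalization, no scaling and the median of probes well above background.

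In the miR-15/16 family 2 higher calls became 1 with the percentile of all probes, no scaling, the median of probes well above background and total signals, and 0 with normexp, and 2 lower calls became 1 with normexp. miR-16-5p turned to -0.31 with the percentile of all probes, -0.20 with no scaling and -0.029 with that median. The column numbers of the authors' table put arrays titled skin and wound together in each group. Read by them, all these counts were 0, and the difference was -0.56 for miR-322-5p, 0.33 for miR-15a-5p, -0.33 for miR-15b-5p, 0.77 for miR-195a-5p and 0.60 for miR-497-5p. Except where a reason is given above, the cause was not tested. Scaling by the median of all probes was not run, because that median lay at background (1.35 to 2.10 intensity units). The median of well-above probes, the family's alternatives, the unscaled probe counts and the scanner software's detection were added after seeing the data. No paired analysis was possible because no sample number occurs in both groups. Signal over background limits the 7 untested names, whose means stayed within 20.0 units, and the number of arrays limits all p-values.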
